A study of Mus musculus with 33 samples.

Results

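The oligodendrocyte lineage and myelin module comprised 33 genes, chosen by gene symbol for a known place in oligodendrocytes, and all 33 were among the 21565 genes of the table. Oligodendrocytes wrap axons in myelin, which speeds conduction and supplies the axon with metabolites. They arise from precursor cells that still divide in the adult cortex, pass through a committed, newly formed stage, and then switch on the structural proteins and the galactolipid enzymes of the sheath. The members were therefore grouped by role into 10 compact and adaxonal myelin proteins, 4 myelin lipid enzymes, 7 other genes of mature oligodendrocytes, 7 lineage transcription factors, 2 precursor genes and 3 genes of committed and newly formed oligodendrocytes.

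Polyadenylated RNA came from the frontal cortex of adult male mice of C57BL/6J background, all collected at the same time of day. WT mice were left to sleep freely (control sleep, CS; n = 6), kept awake for 6 hr on a slow treadmill (sleep deprived, SD; n = 7) or kept awake for 4 hr and then given 2 hr of recovery sleep (RS; n = 7). Mice with both *Mef2c* alleles flanked by loxP sites (*Mef2c* f/f; 4 CS and 3 SD) were compared with mice that in addition carried Camk2a-Cre (Mef2c-cKO; 3 CS and 3 SD), in which *Mef2c*, a transcription factor of neurons, is recombined in forebrain excitatory neurons after birth. The promoter that drives this Cre belongs to forebrain excitatory neurons, not to oligodendrocytes. Some offspring of the cross, however, had 1 allele recombined in the germ line, so that all cell types may have carried a single intact copy in those mice. By the paper's account this germline recombination was present in 2 of the 3 Mef2c-cKO CS samples. The labels do not say which, and the SD samples are not described in this respect. The questions were how the members changed with loss and recovery of sleep, and whether loss of *Mef2c* changed their level or their response.

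Recovered totals ran from 18935045 to 249046089 reads per library, and values are given as CPM (reads of a gene relative to all counted reads of its library) rescaled by a size factor per library. The WT and *Mef2c* libraries formed separate cohorts whose tables summed differently, and levels were not tested between them, since cohort and genotype cannot be told apart. In both cohorts, the deviation of a library from its cohort's mean rose or fell with the GC content of the genes. In WT the Spearman rho of that trend was -0.57, -0.78 and -0.77 in CS libraries 1 to 3, -0.26, -0.28 and -0.14 in CS libraries 4 to 6, -0.02 to 0.77 in SD and -0.37 to 0.65 in RS. In the *Mef2c* cohort it was -0.47 to 0.50 in f/f CS, -0.51 to -0.02 in f/f SD, -0.12 to 0.27 in cKO CS and -0.12 to 0.35 in cKO SD. In Mef2c-cKO CS library 8, the summed level of 11 microglia and macrophage markers was 699 rescaled CPM, against 189 to 295 in the other 12 *Mef2c* libraries, and results resting on it are given with and without it. *Mef2c* itself was counted over the whole gene, of which the deletion removes one exon, so its level (957 to 1727 rescaled CPM in Mef2c-cKO CS and 1080.1 to 1207 in *Mef2c* f/f CS) did not check the genotype labels.

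The members spanned a wide range of expression, and the defining genes of the lineage were present in every library. Per kilobase of exon, *Mbp*, the myelin basic protein that holds the cytoplasmic faces of the sheath together, was highest, with a mean of 93.4 rescaled CPM per kb in WT CS and 80.5 in *Mef2c* f/f CS. In WT CS, *Mal*, a raft-associated proteolipid, followed at 68.6 per kb, and *Car2*, a carbonic anhydrase, at 49.4 per kb. The lipid enzymes were lower, from 3.58 per kb for *Gal3st1*, the sulfatide-forming sulfotransferase, to 17.6 for *Ugt8a*, which makes galactosylceramide. Among the transcription factors the means per kb in WT CS ran from 0.544 for *Nkx2-2* to 6.62 for *Olig1*. The precursor receptor *Pdgfra* stood at 4.63 per kb and *Cspg4*, the NG2 proteoglycan, at 0.989. One member was hardly counted: *Trf*, the iron carrier transferrin, lay between 0 and 1.61 rescaled CPM in all 33 libraries and passed the filter in none of the comparisons. In GENCODE M21, 63.5% of its exon bases are shared on the same strand with the readthrough gene Gm20425. If both genes were in the annotation used for counting, a read there could not be assigned to one gene. That annotation is not given in the sources used here, and Gm20425 is not among the genes of the table. The level of *Trf* is therefore uncertain, and the part of the overlap in it was not tested. *Mobp*, another compact myelin protein, lay between 112 and 164 rescaled CPM in all WT libraries and between 320.4 and 519.8 in all *Mef2c* libraries, a gap between cohorts that was not tested.

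From CS to SD in WT mice, before correction for GC content, most lineage transcription factors rose, while genes of differentiated cells went both ways. Of 32 members tested, 11 were higher and 6 lower, counting a member as called where its adjusted p did not exceed 0.05 and its log2 fold change was 0.3 or more in size. Among all genes tested, 45.1% were called, 24.6% higher and 20.5% lower, so the members' share was near that of genes in general. The median log2 fold change of the members was 0.18, against 0.04 for all genes. With CPM as deposited, the median of all genes moved to 0.30. In that setting 19 members were called higher and 1 lower, and 53.5% of all genes were called. The division into higher and lower genes is therefore relative to the rescaling. In whole tissue, a change in the number of oligodendrocytes and a change in RNA per cell cannot be told apart.

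Of the 7 transcription factors, 5 rose from CS to SD and none fell. After the correction for GC content and length described below, 2 of the 7 were called, and their median log2 fold change went from 0.47 to 0.09. *Olig1*, a basic helix-loop-helix factor of the lineage, went from 3.60 to 30.1 (median 12.5) rescaled CPM in CS to 20.5 to 45.9 (median 36.3) in SD. CS library 5 lay among the SD values and the other 5 CS libraries lay below all 7 of them. This made a log2 fold change of 1.40 ± 0.36 (± the standard error, adjusted p = 0.00759), the largest of any member tested. *Sox8*, an SRY-box factor that acts beside *Sox10* in differentiation, lay at 14.3 to 23.1 (median 20.5) in CS and 22.4 to 38.3 (median 32.2) in SD, with one SD library inside the CS range. Its log2 fold change was 0.63 ± 0.13 (adjusted p = 0.00326). *Nkx6-2*, a homeodomain repressor, was lowly expressed, at 1.22 to 4.18 (median 2.09) in CS and 2.91 to 7.70 (median 5.44) in SD, and the groups overlapped in part (log2 fold change 0.98 ± 0.24). *Myrf*, the membrane-bound activator of myelin genes, and *Olig2*, the partner of *Olig1*, rose by less (0.47, adjusted p = 0.0272, and 0.41, adjusted p = 0.0223). *Sox10* (0.29, adjusted p = 0.142) and *Nkx2-2* (0.29, adjusted p = 0.0682) did not pass. *Cspg4* rose (0.77, adjusted p = 0.0289), whereas *Pdgfra*, the other precursor gene, did not pass (0.02, adjusted p = 0.905).

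The myelin proteins divided. *Cldn11*, the claudin of the tight junctions between myelin lamellae, lay at 33.9 to 59.0 (median 53.5) rescaled CPM in CS and 58.5 to 92.0 (median 81.6) in SD, with only the lowest SD library inside the CS range. It rose by 0.61 ± 0.14 on the log2 scale (adjusted p = 0.00454). *Cnp*, the phosphodiesterase that keeps cytoplasmic channels open in the sheath, lay at 51.1 to 139 (median 123) in CS and 137 to 203 (median 171) in SD (0.67, adjusted p = 0.0137). Here CS library 2 was far below the rest of its group, and the lowest SD library lay just inside the CS range. *Opalin*, a transmembrane protein of the paranodal loops, went the other way, from 17.5 to 22.1 (median 19.4) in CS to 11.7 to 15.5 (median 14.2) in SD. Every SD library lay below every CS library (-0.49, adjusted p = 0.00159). *Ermn*, a cytoskeletal protein of late differentiation, and *Tspan2*, a tetraspanin of the sheath, also fell (-0.57, adjusted p = 0.0465, and -0.45, adjusted p = 0.0231). The call of *Ermn* was made in 4 of 13 fits that each left out 1 library, and after correction for GC content and length its value was -0.11, adjusted p = 0.609. *Mbp* lay at 505 to 928 (median 819.7) in CS and 648 to 1139 (median 959.9) in SD and did not pass (0.20, adjusted p = 0.290). Neither did *Mobp*, *Mal*, *Mog* and *Mag*, whose log2 fold changes were 0.16, -0.36, 0.05 and 0.56 (adjusted p of *Mag* = 0.0654).

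Of the lipid enzymes, *Aspa*, which splits N-acetylaspartate to supply acetate for lipid synthesis, lay at 28.7 to 43.8 (median 33.6) rescaled CPM in CS and 17.4 to 27.6 (median 21.2) in SD. Again no SD library reached the lowest CS library, and the log2 fold change was -0.67 ± 0.13 (adjusted p = 0.00201). *Aspa* and *Opalin* were the only 2 of 32 members whose libraries did not overlap between CS and SD, where 15.1% of all genes did not. *Ugt8a* fell (-0.37, adjusted p = 0.0182) and *Gal3st1* rose (0.40, adjusted p = 0.0371, called in 6 of the 13 fits with 1 library left out), while *Fa2h*, the fatty acid 2-hydroxylase, did not pass (0.03, adjusted p = 0.899). Of the other mature genes only *Qdpr*, a dihydropteridine reductase, was called (0.54, adjusted p = 0.00743). Of the newly formed stage, *Enpp6*, a choline phosphodiesterase, fell (-0.59, adjusted p = 0.0108) and *Gpr17*, a receptor that holds cells in the committed stage, rose (0.41, adjusted p = 0.0228), and *Bcas1* did not pass (-0.25, adjusted p = 0.137). Genes on the opposite strand cover 18.6% of the exon bases of *Qdpr*, 12.9% of those of *Nkx6-2*, 12.6% of *Bcas1*, 10.6% of *Sox8* and 7.26% of *Olig1*. The libraries kept the strand, but whether the counting used it is not given in the sources used here, so their values may include antisense reads. The levels by library of 8 members are plotted for the WT groups.

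**Figure D1:**
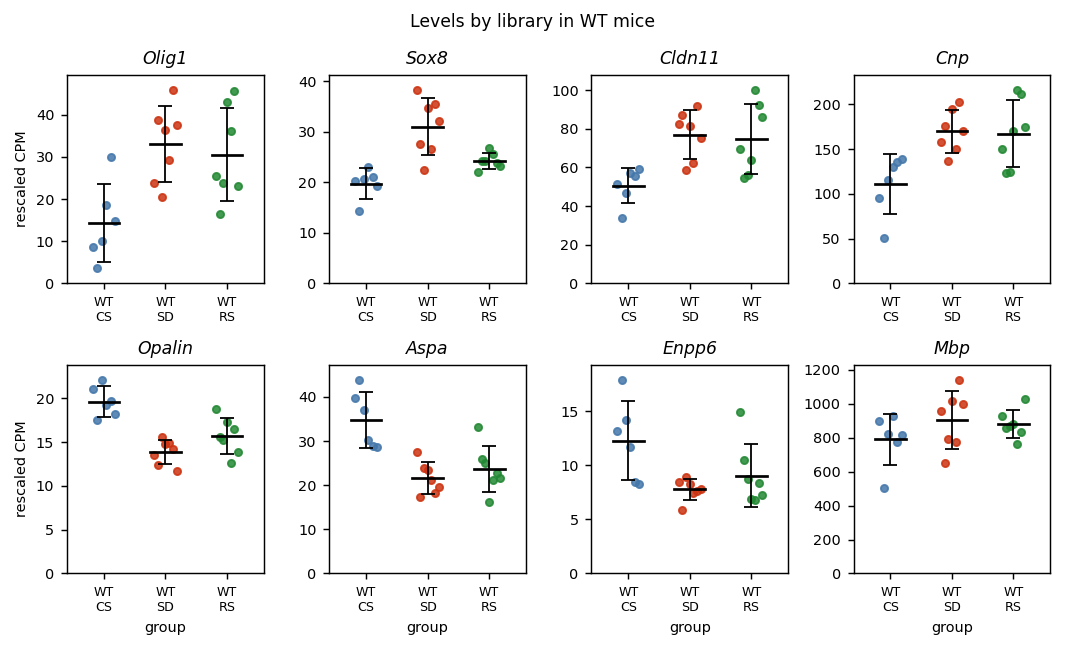
Level of 8 members in each WT library (y axis, rescaled CPM, from 0; x axis, CS, SD and RS), with points for libraries, horizontal lines for group means and bars for the SD. *Opalin* and *Aspa* show no overlap between CS and SD, *Olig1*, *Sox8*, *Cldn11* and *Cnp* overlap in few libraries, and *Mbp* overlaps widely.

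The direction of change in WT mice went with the GC content of the transcript. Across 32 members the Spearman rho between GC content and the log2 fold change from CS to SD was 0.83, as a description over genes that share the same libraries. The 11 members that rose had a GC content of 50.9% to 65.7% (median 57.6%), and the 6 that fell one of 38.0% to 47.6% (median 41.8%), with no overlap between them. After each library was corrected for its trend on GC content and transcript length, 6 members were called instead of 17, where 20.3% of all genes were. *Olig1* (0.80, adjusted p = 0.0188), *Cldn11* (0.52, adjusted p = 0.00873) and *Sox8* (0.37, adjusted p = 0.0192) remained higher. *Opalin* (-0.42, adjusted p = 0.00652) and *Aspa* (-0.37, adjusted p = 0.0121) remained lower. *Apod*, an apolipoprotein of oligodendrocytes, was the other (0.38, adjusted p = 0.0427), having not passed before (0.30, adjusted p = 0.0978). *Nkx6-2*, the member of highest GC content (65.7%), went from 0.98 to 0.12, adjusted p = 0.545, and *Myrf* went to 0.09, adjusted p = 0.662. *Ugt8a* (38.0%) turned from -0.37 to 0.09, and *Gal3st1* and *Olig2* also changed sign. The other 9 that lost the call, *Nkx6-2* among them, kept their direction. *Qdpr* missed it by size alone (0.28, adjusted p = 0.0450), while *Cspg4* (0.36, adjusted p = 0.0974) and *Cnp* (0.31, adjusted p = 0.0661) missed it by the adjusted p and *Enpp6* (-0.25, adjusted p = 0.0907) and *Gpr17* (0.25, adjusted p = 0.0879) by both. The rho between GC content and the corrected fold changes was 0.28 over 32 members. Leaving out CS libraries 1 to 3 together, an alternative chosen after seeing the data, left 5 members called: *Opalin*, *Aspa*, *Cldn11*, *Sox8* and *Apod*. In that setting 17.8% of all genes were called.

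**Figure D2:**
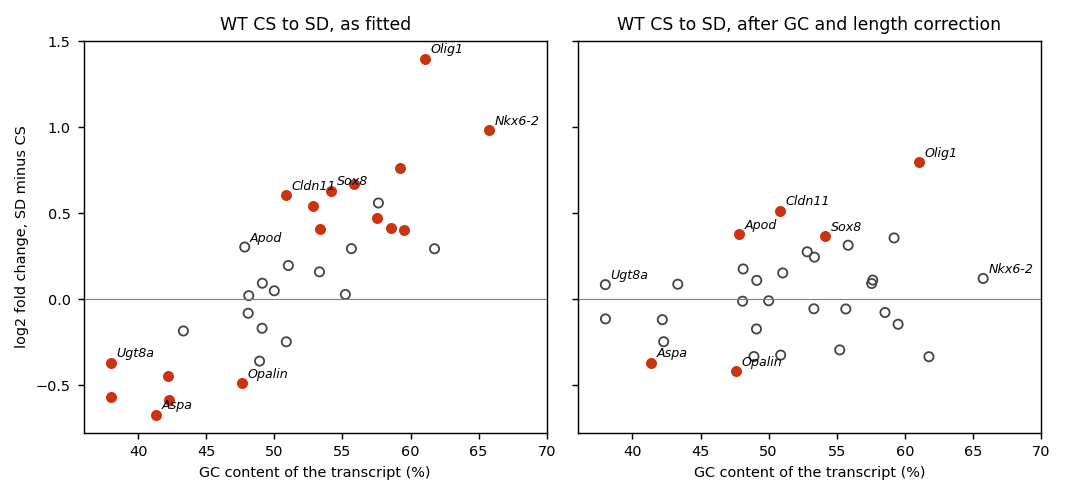
Log2 fold change from CS to SD in WT mice (y axis) against GC content of the transcript in % (x axis) for 32 members, as fitted (left) and after correction of each library for GC content and length (right), with red points for called members. The Spearman rho is 0.83 on the left and 0.28 on the right, where 6 members are called, among them *Olig1*, *Cldn11*, *Sox8*, *Opalin* and *Aspa*.

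Markers of other cells moved between these groups as well. Of 9 meningeal fibroblast markers tested, 6 rose from CS to SD, with a summed level of 114 to 555 rescaled CPM in CS and 524 to 984 in SD, and choroid plexus markers summed to 195 in CS library 1 against at most 67.2 in the other WT libraries. Markers of striatal projection neurons varied widely within groups, summing to 786 to 1680 in CS and 909 to 1767 in SD. The part of these markers in the members' values was not tested. Of 39 other oligodendrocyte genes tested, 11 rose and 7 fell. *Gsn* (0.62, adjusted p = 0.000875) and *Ppp1r14a* (0.93, adjusted p = 0.00231) rose, and *Tnr* fell (-0.46, adjusted p = 0.00384). Of 21 other genes of myelin lipid synthesis, 4 rose and 3 fell, among them *Elovl7*, a fatty acid elongase (-0.41, adjusted p = 0.00609), and *Psap*, the saposin precursor (0.53, adjusted p = 0.00874).

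In recovery sleep fewer WT members were called, again with transcription factors higher and *Aspa* and *Opalin* lower. From CS to RS, a comparison that shares its CS libraries with the one above, 6 of 32 members were higher and 2 lower, against 17.5% of all genes called, 9.28% higher and 8.22% lower. No member's libraries were without overlap between CS and RS, where 3.72% of all genes' were. *Olig1* lay at 16.6 to 45.7 (median 25.4) rescaled CPM in RS (1.25, adjusted p = 0.0419), *Cldn11* at 54.8 to 100.1 (median 69.7) (0.54, adjusted p = 0.0414) and *Cspg4* at 16.6 to 26.8 (median 18.6) (0.89, adjusted p = 0.0406). RS libraries of these 3 genes spread from within the CS range to well above it. *Olig2* (0.63, adjusted p = 0.0334), *Nkx6-2* (0.82, adjusted p = 0.0392) and *Sox8* (0.30, adjusted p = 0.0485) rose too. *Aspa* lay at 16.2 to 33.2 (median 22.7) (-0.55, adjusted p = 0.0362) and *Opalin* at 12.7 to 18.7 (median 15.5) (-0.32, adjusted p = 0.0421), both overlapping CS. On the deposited CPM, which moved the median of all genes from 0.02 to 0.20, 9 members were higher and 1 lower, with 20.9% of all genes called. The members' calls from CS to RS were near the threshold: none was left after correction for GC content and length, with CS libraries 1 to 3 left out together, or without any one of CS libraries 1, 2 and 3 and RS libraries 3, 4, 5, 6 and 12. Of all genes 5.13% were called after the correction, and at most 1.75% in each of these other settings. From SD to RS no member was called by limma, edgeR or DESeq2, with 0.0232% of all genes called, 0.0155% higher and 0.00774% lower by limma. Without adjustment 2 members had a p of at most 0.05, *Sox8* (log2 fold change -0.33, adjusted p = 0.507) and *Apod* (-0.22, adjusted p = 0.878). A missing call does not show that SD and RS were alike, and the standard error of the difference was 0.22 for *Olig1* and 0.09 for *Opalin*.

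**Figure D3:**
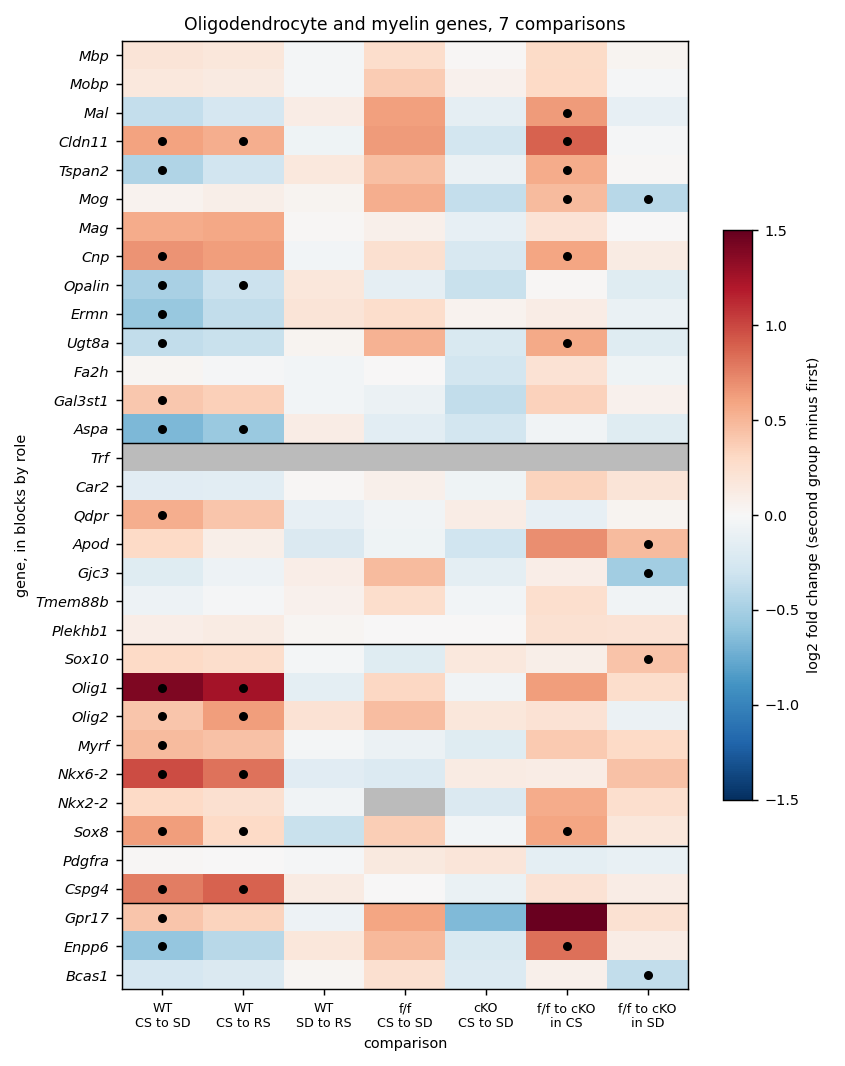
Log2 fold change (colour, second group minus first, from blue below 0 to red above 0) of 33 members (y axis, in blocks by role) in 7 comparisons (x axis), with black dots for called members and grey for members not tested. In both WT columns against CS the transcription factors are red, the column of *Mef2c* f/f CS to SD is mostly red without a call, and that of *Mef2c* f/f to Mef2c-cKO in CS has 8 dots, all red.

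In *Mef2c* f/f mice, the estimates of 23 of 31 members were above 0 from CS to SD, but none passed the test across all genes. No member of 31 tested was called by limma, against 0.0403% of all genes called, 0.0242% higher and 0.0161% lower, but the median log2 fold change of the members was 0.24 where that of all genes was 0.00. Without adjustment 16 members had a p of at most 0.05, a share not counted for all genes. On the recovered reads edgeR called 1 member (0.0725% of all genes) and DESeq2 7 (3.76% of all genes). For 12 members every SD library lay above every CS library, where 17.4% of all genes did not overlap in one direction or the other. *Cldn11* was measured at 74.1, 62.3, 61.5 and 68.0 rescaled CPM in CS and 102, 98.1 and 109 in SD, 2 groups far apart relative to their spread (log2 fold change 0.63 ± 0.09, adjusted p = 0.0514). *Mog*, a surface glycoprotein of the outer sheath, lay at 35.8, 27.9, 32.7 and 34.6 in CS and 44.5, 48.3 and 50.9 in SD (0.55, adjusted p = 0.0765). *Mal* lay at 139.9, 99.8, 95.0 and 99.4 in CS and 165, 160.1 and 170.4 in SD (0.62, adjusted p = 0.0956), with CS library 1 well above the other 3. Without that library 9 members were called, as were 4.75% of all genes, *Mal* (0.75, adjusted p = 0.00724) and *Cldn11* (0.69, adjusted p = 0.0229) first, together with *Mog*, *Gpr17*, *Gjc3*, *Ugt8a*, *Tspan2*, *Mobp* and *Ermn*. Leaving out any one of the other 6 libraries gave no call. After correction for GC content and length 1.01% of all genes and 4 members were called: *Cldn11* (0.66, adjusted p = 0.0111), *Gpr17*, *Mog* and *Mal*. In this comparison the Spearman rho between the fold changes and GC content was -0.30 over 31 members. *Gpr17* lay at 16.2, 20.3, 16.8 and 16.5 in CS and 28.7, 25.2 and 25.6 in SD, with no overlap. Of the 6 members that fell from CS to SD in WT, the estimates in *Mef2c* f/f were -0.13 for *Opalin*, -0.16 for *Aspa*, 0.26 for *Ermn*, 0.45 for *Tspan2*, 0.48 for *Enpp6* and 0.53 for *Ugt8a*, so that 4 of the 6 lay above 0.

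In Mef2c-cKO mice no member was called from CS to SD by limma, edgeR or DESeq2, with 0.0234% of all genes called by limma. Without adjustment 3 of 32 had a p of at most 0.05. The median log2 fold change was -0.13, the Spearman rho with GC content was 0.19, and for 4 members every SD library lay below every CS library, where 9.05% of all genes did not overlap. *Mog* lay at 46.7, 47.5 and 42.8 rescaled CPM in CS and 37.0, 29.8 and 40.8 in SD (-0.35, adjusted p = 0.998), and *Cldn11* at 115, 114 and 142 and 114, 92.5 and 101 (-0.27, adjusted p = 0.998). *Mbp* was at 919, 1032 and 607 in CS and 941, 768 and 828.7 in SD, with wide overlap. Without Mef2c-cKO CS library 8 there was again no call, the median was -0.11, and *Cldn11* gave -0.17, adjusted p = 0.939, and *Mog* -0.40, adjusted p = 0.939.

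The difference between the 2 genotypes in their response to SD was tested as an interaction, called at an adjusted p of at most 0.05 alone. The estimate was below 0, that is lower in Mef2c-cKO, for 28 of 32 members, with a median of -0.29 on the log2 scale against 0.00 for all genes. None was called by limma (0.00778% of all genes), none by edgeR and 4 by DESeq2. For 11 members the unadjusted p by limma did not exceed 0.05, a share not counted for all genes. The Spearman rho of the estimates with GC content was 0.27. The estimates were -0.90 ± 0.15 for *Cldn11* (adjusted p = 0.127), -0.90 ± 0.16 for *Mog* (adjusted p = 0.160) and -0.75 ± 0.14 for *Ugt8a* (adjusted p = 0.202). These 3 and *Bcas1* were the members that DESeq2 called, and *Cldn11* alone was called after correction for GC content and length (-0.90, adjusted p = 0.0297, with 0.0390% of all genes called). DESeq2 called 0.459% of all genes. Without Mef2c-cKO CS library 8 no member was called by limma, and the estimates were -0.80, adjusted p = 0.151 for *Cldn11*, -0.95, adjusted p = 0.187 for *Mog* and -0.76, adjusted p = 0.276 for *Ugt8a*.

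Under control sleep, *Cldn11*, *Enpp6*, *Cnp*, *Ugt8a* and 4 further members were higher in Mef2c-cKO than in *Mef2c* f/f mice. Of 32 members tested 8 were higher and none lower, against 7.67% of all genes called, 3.17% higher and 4.5% lower, and the median log2 fold change was 0.30 against 0.03 for all genes. For 13 members every Mef2c-cKO library lay above every *Mef2c* f/f library, where 26.9% of all genes did not overlap in either direction. The 8 were 5 of 10 myelin proteins, 1 of 4 lipid enzymes (*Ugt8a*), 1 of 7 transcription factors (*Sox8*) and 1 of 3 genes of newly formed cells (*Enpp6*). *Cldn11* stood at 74.1, 62.3, 61.5 and 68.0 rescaled CPM in *Mef2c* f/f and 115, 114 and 142 in Mef2c-cKO (log2 fold change 0.89 ± 0.11, adjusted p = 0.00407). *Enpp6* stood at 7.48, 6.20, 6.61 and 6.61 and 13.4, 12.9 and 10.7 (0.83 ± 0.13, adjusted p = 0.00904). In both genes the Mef2c-cKO libraries all lay clear of the *Mef2c* f/f range. *Ugt8a* was at 58.9, 49.0, 59.5 and 54.2 against 80.1, 85.3 and 81.2 (0.57, adjusted p = 0.0113), and *Cnp* at 139, 135, 126 and 161 against 219, 221 and 194 (0.59, adjusted p = 0.0149). *Sox8* was at 18.3, 15.3, 15.8 and 20.8 against 27.3, 26.5 and 25.5 (0.59, adjusted p = 0.0248). *Mal* (0.63, adjusted p = 0.0276), *Tspan2* (0.56, adjusted p = 0.0355) and *Mog* (0.48, adjusted p = 0.0303) made up the 8, all without overlap. *Mbp*, *Mobp*, *Mag*, *Opalin* and *Ermn* did not pass (0.29, 0.30, 0.21, 0.02 and 0.11), nor did the precursor genes *Pdgfra* (-0.14) and *Cspg4* (0.21).

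On the deposited CPM, with the median of all genes moved from 0.03 to 0.13, 12 members and 9.68% of all genes were called, and after correction for GC content and length 9 members and 11.8% of all genes. Calls over all genes fell with those of the members when single libraries were left out. Without Mef2c-cKO CS library 7, 1 member and 1.34% of all genes were called, without *Mef2c* f/f CS library 2, 3 members and 1.38%, and without *Mef2c* f/f CS library 3, 4 members and 4.27%. *Cldn11* was called in all 7 fits that each left out 1 library. Of these 7 fits, *Enpp6* and *Ugt8a* were called in 6, *Cnp* in 5, *Mog* and *Sox8* in 3, and *Mal* and *Tspan2* in 1. Without Mef2c-cKO CS library 8, whose microglia and astrocyte markers stood apart, 8 members were again called (4.79% of all genes), *Car2* and *Gpr17* in place of *Mal* and *Tspan2*. Microglia and macrophage markers summed to 189 to 224 rescaled CPM in *Mef2c* f/f CS and to 229, 278 and 699 in Mef2c-cKO CS. The estimates of all 11 were above 0, with a median log2 fold change of 0.70, against 0.30 for the members. None of the 11 was called by limma, while 6 had an unadjusted p not above 0.05 and 4 did not overlap between genotypes. Choroid plexus markers summed to 321 in Mef2c-cKO CS library 5 and to at most 21.9 in the other *Mef2c* libraries. Striatal projection neuron markers summed to 772 to 1313 in *Mef2c* f/f CS and 608 to 1475 in Mef2c-cKO CS. The part of these markers in the members' values was not tested. Of 39 other oligodendrocyte genes 5 were higher and 1 lower, among them *Lpar1*, a lysophosphatidic acid receptor (0.55, adjusted p = 0.0243), *Neu4*, a sialidase (1.02, adjusted p = 0.0361), and *Prr5l*, which fell (-0.62, adjusted p = 0.0303). Of 21 other lipid genes 3 were higher, *Degs1* (0.41, adjusted p = 0.0350), *Fdps* (0.60, adjusted p = 0.0377) and *Cers2*, the ceramide synthase of very long chains (0.42, adjusted p = 0.0396).

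The same 4 *Mef2c* f/f CS libraries served as controls for the SD response of *Mef2c* f/f mice and for the genotype difference in CS. They also entered the interaction of genotype and SD and the comparison of the *Mef2c* f/f and WT responses given below. All these results therefore share one low group. The mean was lowest in *Mef2c* f/f CS among the 4 *Mef2c* groups for 19 of 32 members, where it was lowest for 30.6% of all genes. For 7 members (*Cldn11*, *Ugt8a*, *Olig1*, *Olig2*, *Sox8*, *Gpr17* and *Enpp6*) all 4 of these libraries lay below all 9 others, where 2.3% of all genes did, and for none above, where 3.48% did. The plot of levels in the *Mef2c* groups shows this arrangement.

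**Figure D4:**
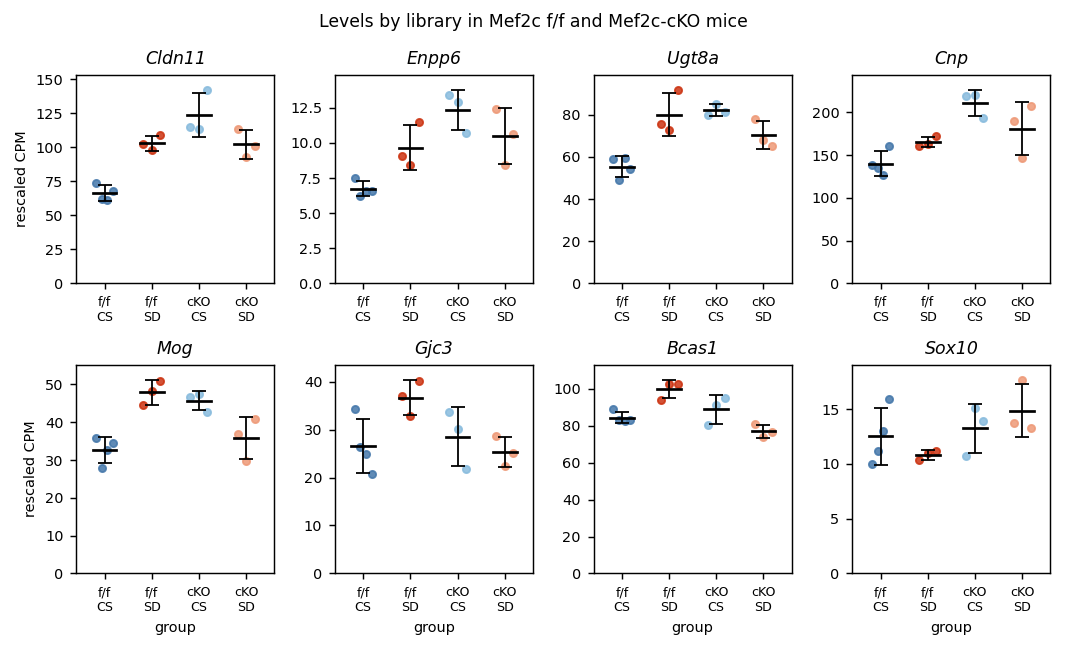
Level of 8 members in each library of the *Mef2c* mice (y axis, rescaled CPM, from 0; x axis, f/f CS, f/f SD, cKO CS and cKO SD), with points for libraries, horizontal lines for group means and bars for the SD. In *Cldn11*, *Enpp6* and *Ugt8a* the 4 f/f CS libraries lie below the other 9, and in *Bcas1* and *Gjc3* the f/f SD libraries lie above the cKO SD libraries.

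To show the sequence just upstream of members that moved, the 250 bases before the transcription start are given for *Cldn11*, *Mog* and *Enpp6*, called between genotypes in CS, and for *Opalin*, called in both WT comparisons against CS. They were taken from RefSeq (GRCm38.p6), read 5′ to 3′ on the strand of the gene, and none of them overlaps an annotated exon. Capitals mark letters that match a SOX motif (ACAAAG or ACAATG) or a MYRF motif (CTGGCAC or CTGGTAC) on either strand.
Cldn11 (chr3:31149670-31149919, plus strand): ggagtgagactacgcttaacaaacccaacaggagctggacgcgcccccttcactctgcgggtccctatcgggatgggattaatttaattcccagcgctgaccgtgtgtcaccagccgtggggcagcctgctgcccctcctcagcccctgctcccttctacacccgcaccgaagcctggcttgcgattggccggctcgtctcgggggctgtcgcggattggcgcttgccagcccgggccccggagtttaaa
Mog (chr17:37023399-37023648, minus strand): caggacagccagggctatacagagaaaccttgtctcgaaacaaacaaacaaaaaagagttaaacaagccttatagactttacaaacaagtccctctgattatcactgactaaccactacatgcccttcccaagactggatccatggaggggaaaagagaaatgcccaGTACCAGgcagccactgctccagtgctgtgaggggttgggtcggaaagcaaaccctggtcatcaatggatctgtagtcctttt
Enpp6 (chr8:46986637-46986886, plus strand): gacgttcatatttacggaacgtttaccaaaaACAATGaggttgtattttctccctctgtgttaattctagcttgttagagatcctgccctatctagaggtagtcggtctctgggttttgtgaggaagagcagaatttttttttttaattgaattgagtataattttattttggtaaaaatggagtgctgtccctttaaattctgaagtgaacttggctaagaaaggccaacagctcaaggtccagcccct
Opalin (chr19:41077114-41077363, minus strand): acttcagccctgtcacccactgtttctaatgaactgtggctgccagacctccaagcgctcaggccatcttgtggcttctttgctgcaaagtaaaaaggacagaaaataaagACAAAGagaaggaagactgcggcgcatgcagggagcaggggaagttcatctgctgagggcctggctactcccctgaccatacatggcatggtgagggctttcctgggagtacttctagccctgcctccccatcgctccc
*Mog* holds one MYRF match on the opposite strand, *Enpp6* and *Opalin* hold one SOX match each, and *Cldn11* holds no match in this window, which says nothing of whether a factor binds. RefSeq starts were matched for 24 of 33 members, 30 starts in all. ACAAAG occurred in 26.7% of these 30 windows and in 16.5% of 32851 windows of all genes, ACAATG in 20% and 10.7%, CTGGCAC in 10% and 4.19%, and CTGGTAC in 3.33% and 1.83%. Of E-boxes that OLIG factors can bind, CAGCTG occurred in 3.33% and 13%, and CATATG in 6.67% and 3.46%. Several starts of one gene share bases, and these shares are a description only.

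After SD the members called between genotypes went in both directions, and their share was near that of genes in general. Fewer members were called than in CS, while the share of all genes called was larger (15.1% against 7.67%). In Mef2c-cKO 2 of 32 members were higher and 3 lower than in *Mef2c* f/f, against 15.1% of all genes called, 9.1% higher and 5.99% lower, and the median log2 fold change was 0.03. The libraries of 11 of the 32 members did not overlap, a share below the 40.3% of all genes. *Bcas1*, which marks newly myelinating cells, lay at 94.1, 103 and 102 rescaled CPM in *Mef2c* f/f and 80.7, 73.7 and 76.9 in Mef2c-cKO (-0.37, adjusted p = 0.00931). *Gjc3*, a gap junction connexin, lay at 37.0, 32.9 and 40.1 and 28.7, 22.4 and 25.1 (-0.52, adjusted p = 0.0160), and *Mog* at 44.5, 48.3 and 50.9 and 37.0, 29.8 and 40.8 (-0.42, adjusted p = 0.0399). All 3 were lower in every Mef2c-cKO library. *Apod* lay at 69.7, 72.1 and 67.5 and 105, 78.5 and 111 (0.47, adjusted p = 0.0321), and *Sox10*, the central activator of the lineage, at 10.3, 11.05 and 11.2 and 13.7, 17.7 and 13.3 (0.43, adjusted p = 0.0409). Both were higher in every Mef2c-cKO library. On the deposited CPM 5 members were higher and 1 lower, with 17.1% of all genes called and their median moved from 0.01 to 0.09. After correction for GC content and length the 3 members given above as lower were the only ones called (15.0% of all genes). The Spearman rho between fold change and GC content was 0.54 over 32 members. The count fell to 1 without *Mef2c* f/f SD library 1 or 3 (6.43% and 7.41% of all genes) and to 2 without *Mef2c* f/f SD library 2 or Mef2c-cKO SD library 5 (10.9% and 11.3% of all genes). It rose to 7 without Mef2c-cKO SD library 6 (19.0% of all genes). *Bcas1* was called each time. Microglia and macrophage markers moved alongside, 7 of 11 being higher, with a summed level of 208 to 219 rescaled CPM in *Mef2c* f/f SD and 267 to 295 in Mef2c-cKO SD, while 5 of 14 excitatory neuron markers were lower and 6 of 12 inhibitory neuron markers higher and 3 lower. Their part in the members' values was not tested. Among other oligodendrocyte genes 3 of 39 were higher and 1 lower, the precursor genes *Lhfpl3* (0.59, adjusted p = 0.0171) and *Vcan* (0.42, adjusted p = 0.0202) among the first and *Enpp2* (-0.62, adjusted p = 0.0435) the last.

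Mef2c-cKO CS library 8 differed from the other 2 libraries of its group in the members too. *Gpr17* reached 133 rescaled CPM there, against 27.5 and 32.8, the highest value of all 33 libraries. *Apod* reached 205 against 107 and 76.8, and *Cldn11* 142 against 115 and 114, both again the highest of all libraries. In the other direction, *Pdgfra* was at 25.9 against 42.7 and 39.2, the lowest of all libraries, and *Mbp* at 607 against 919 and 1032. The complement genes *C1qa*, *C1qb* and *C1qc*, made by microglia and named after their values were seen, stood at 90.2, 89.0 and 100.1 in this library and at no more than 25.5 in the other 2. Astrocyte markers summed to 6568 rescaled CPM in this library, against 4544 to 5583 in the other *Mef2c* libraries. Meningeal fibroblast and striatal projection neuron markers summed to 212 and 608, each the lowest of the *Mef2c* libraries. Sums of excitatory and inhibitory neuron markers lay within the range of the other *Mef2c* libraries. Whether the members and these marker genes moved for one reason was not tested. With all libraries *Gpr17* differed between genotypes in CS by 1.48 ± 0.45 on the log2 scale and was not called (adjusted p = 0.0760). Without library 8 it differed by 0.77, adjusted p = 0.0189, so that the estimate was smaller and the call was made.

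**Figure D5:**
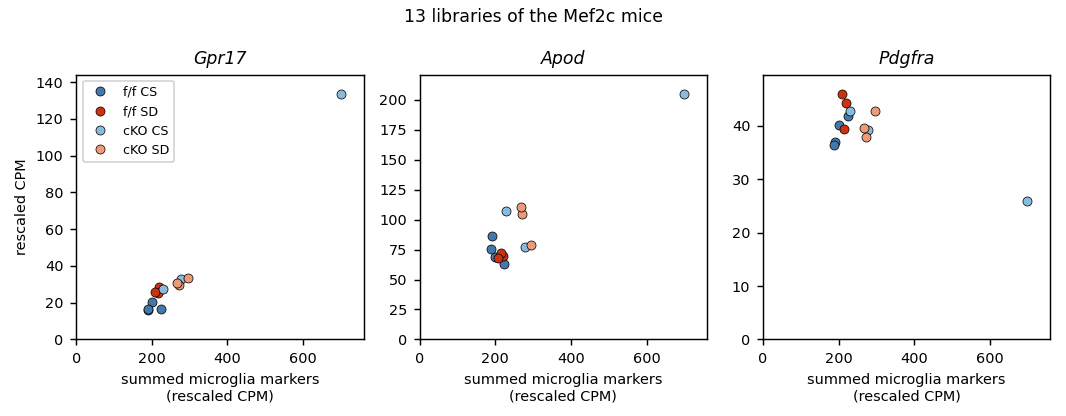
Level of *Gpr17*, *Apod* and *Pdgfra* (y axes, rescaled CPM) against the summed level of 11 microglia and macrophage markers (x axis, rescaled CPM) in 13 libraries of the *Mef2c* mice, coloured by group. A single cKO CS library, number 8, lies far to the right, highest in *Gpr17* and *Apod* and lowest in *Pdgfra*.

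The response to SD also differed between the *Mef2c* f/f and WT cohorts for some members. In this interaction 7 of 32 were called, against 15.1% of all genes called, 9.35% higher and 5.78% lower, 6 of them with a higher estimate in *Mef2c* f/f. *Enpp6* fell from CS to SD in WT (-0.59) and gave 0.48 in *Mef2c* f/f, a difference of 1.07 ± 0.25 (adjusted p = 0.0201). *Ugt8a* gave -0.37 and 0.53 (difference 0.90 ± 0.18, adjusted p = 0.0154), and *Tspan2* gave -0.45 and 0.45 (difference 0.89 ± 0.24, adjusted p = 0.0285). *Mal* (0.98), *Gjc3* (0.66) and *Mog* (0.50) were the other higher ones, and *Nkx6-2* was lower (-1.19). The estimate went with GC content (Spearman rho -0.84 over 32 members), and after the correction *Enpp6* (0.65, adjusted p = 0.0447) and *Mog* (0.57, adjusted p = 0.0439) alone were called (2.24% of all genes). On the deposited CPM 3 members were higher and 4 lower, where 26.1% of all genes were called and their median moved from -0.05 to -0.30. Genotype and cohort cannot be told apart here.

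Within groups, the members did not move as one block. Over the 33 libraries, taken as deviations from their group means, the Pearson correlations between 2 members had a median of 0.15 over 496 pairs and ran from -0.73 to 0.88. They are descriptions over libraries that differ in depth and in their trend on GC content, which all members of a library share. Pairs of the same role had a median of 0.28 and pairs of different roles 0.11. Pairs under 5 points apart in GC content had a median of 0.33 and pairs 10 points or more apart -0.24. *Mal* and *Bcas1* went together most closely (0.88), followed by *Mag* and *Cnp* (0.88), and *Mal* and *Cspg4* most oppositely (-0.73). Among 11407 genes outside all lists, those whose deviations followed the mean of the 20 counted members of mature oligodendrocytes most closely over the 33 libraries were *Tmem98* (r = 0.80), *Olfml1* (0.69), *Csnk1e* (0.68), *Sept4* (0.68) and *Smco3* (0.67). In all, 23 of 33 members were called in at least one of 9 comparisons, a share not counted for all genes. From WT CS to SD alone, 17 members and 45.1% of all genes were called, before correction for GC content. The 10 members called in none of the 9 comparisons were *Mbp*, *Mobp*, *Mag*, *Fa2h*, *Trf*, *Car2*, *Tmem88b*, *Plekhb1*, *Nkx2-2* and *Pdgfra*.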

How the data were processed

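RNA from the frontal cortex of mice was sequenced in 33 samples as stranded, paired-end poly(A) libraries. The authors used Trimmomatic for trimming, STAR for alignment (mm10) and HTSeq for counting the reads that mapped to one place, and deposited CPM, the reads of a gene relative to all counted reads of its library, from edgeR, in one table of 21565 genes. Versions and the gene annotation used for counting are not given in the sources used here. Every deposited CPM value (711645 of 711645) was a whole multiple, within 0.01 reads, of the smallest value of its library, so reads per gene and library totals (18935045 to 249046089) were recovered. For all 33 libraries, CPM was rescaled by a median-of-ratios factor over the 11570 genes that reached a CPM of 1 in all of them.

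Genes that reached a CPM of 1 in all libraries of any group compared were tested with limma 3.58.1 (R 4.3.3) on log2(rescaled CPM + 0.5), with Benjamini-Hochberg adjustment over all genes tested. Fold changes are on that scale, which understates those of low genes. A call needed an adjusted p not above 0.05 and a log2 fold change of 0.3 or more in size, an interaction the adjusted p alone. Percentages of all genes called count the same rule, and "not overlapping" means that all libraries of one group lay above all of the other. Unadjusted p-values of at most 0.05 were counted for members and listed genes only. The limma, edgeR and DESeq2 fits were tried on simulated counts for WT CS to SD and for the genotypes in CS. These counts held no trend on GC content and no outlying library, so they do not test how the fits handle either. Alternatives were the deposited CPM, quantile normalization, other pseudocounts and filters, edgeR 4.0.16 and DESeq2 1.42.0 on the recovered reads, one fit of all groups, a spline correction of each library for GC content and transcript length (GENCODE M21, 19466 genes matched), a replicate block and leaving out each library. The members, roles and marker lists were chosen with earlier results of these data known. All members are accounted for, and up to 4 genes of other lists are named per list and comparison, in order of adjusted p. Labels number the libraries but tie no number to a litter or day, and p-values measure the spread between these samples. Between replicates, counts differed by more than sampling noise in all 72 pairs (chi-square per degree of freedom from 13.6 to 700).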

Additional observations from a re-analysis of the deposited data

Results flagged for a closer look

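Among 132 combinations of a member and a group of 4 to 7 libraries, 11 held a single library far from the others of its group by Dixon's test at the 95% level, where chance gives about 1 in 20. In WT mice, *Mbp* was low in CS library 2 (505 rescaled CPM) and *Trf*, near 0 throughout, was high in CS library 5 (0.643). SD library 1 was high in *Mal* (204), *Ermn* (71.1) and *Plekhb1* (151), and SD library 2 was low in *Tspan2* (48.9) and *Myrf* (13.4). In *Mef2c* f/f CS, library 1 was high in *Mal* (139.9) and *Bcas1* (89.0), library 2 in *Gpr17* (20.3) and library 4 in *Gal3st1* (9.57).

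The response to SD differed between the *Mef2c* f/f and WT cohorts for 7 of 32 members by limma's interaction term, where 15.1% of all genes were called. The log2 difference was 1.07 for *Enpp6*, 0.98 for *Mal*, 0.90 for *Ugt8a*, 0.89 for *Tspan2*, 0.66 for *Gjc3*, 0.50 for *Mog* and -1.19 for *Nkx6-2*. After correction for GC content and length 2 members, *Enpp6* and *Mog*, were called (2.24% of all genes). Genotype and cohort cannot be told apart in this comparison.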

How the results depend on the processing

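The counts of members called moved by over 1.5 times under the following settings, and the cause was not tested. After correction for GC content and length, 6 members were called from WT CS to SD (17 in the report), 0 from WT CS to RS (8), 4 from *Mef2c* f/f CS to SD (0), 3 between genotypes in SD (5), 1 in the interaction of genotype and SD (0) and 2 in that of cohort and SD (7). Of all genes 20.3%, 5.13%, 1.01%, 15.0%, 0.0390% and 2.24% were called in the same order. *Gal3st1* (-0.14), *Olig2* (-0.076) and *Ugt8a* (0.086) then changed sign from WT CS to SD. In the settings that follow, percentages in brackets are the share of all genes called. With WT CS libraries 1 to 3 left out together, chosen after seeing the data, the counts were 5 from WT CS to SD (17.8%), 0 from WT CS to RS (0%) and 2 for the cohort interaction (4.04%). Without a filter on low values they were 0 from WT CS to RS (1.99%), 3 between genotypes in SD (12.1%) and 3 for the cohort interaction (5.94%). With only genes that reached a CPM of 5 in all libraries they were 5 from WT CS to RS (19.2%) and 1 from *Mef2c* f/f CS to SD (0.117%). By edgeR they were 5 (12.7%) and 1 (0.0725%) in the same comparisons. By DESeq2 they were 7 from *Mef2c* f/f CS to SD (3.76%) and 4 in the genotype interaction (0.459%). One fit of all groups gave 13 from WT CS to RS (31.5%), 1 from *Mef2c* f/f CS to SD (0.0483%) and 2 between genotypes in SD (7.98%). A pseudocount of 1 gave 1 from *Mef2c* f/f CS to SD (0.105%), and quantile normalization 3 between genotypes in SD (11.2%).

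With single libraries left out, the counts ran from 12 to 19 from WT CS to SD (34.9% to 49.6% of all genes called) and 0 to 11 from WT CS to RS (0% to 29.2%). They ran from 0 to 9 from *Mef2c* f/f CS to SD (0% to 4.75%) and 1 to 8 between genotypes in CS (1.34% to 6.89%). They ran from 1 to 7 between genotypes in SD (6.43% to 19.0%) and 0 to 12 for the cohort interaction (0.175% to 25.2%). The last count was 0 without *Mef2c* f/f SD library 3, 1 without f/f SD library 1 or f/f CS library 4, 2 without f/f CS library 2, 3 without f/f CS library 3, WT CS library 3 or WT SD library 8 or 9, 4 without WT CS library 1, WT SD library 2 or f/f SD library 2, and 12 without WT CS library 5. From WT SD to RS and Mef2c-cKO CS to SD no alternative made a call.

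With the replicate number as a block, 0 members were called from WT CS to SD, 13 from WT CS to RS and 0 in the cohort interaction. Of all genes 2.22%, 33.6% and 0% were called in the same order. Deviations of same-numbered libraries correlated above 0.1 in 3 of 5 pairs of CS and SD, 4 of 6 of CS and RS and 2 of 5 of SD and RS in WT. They did so in 2 of 3 pairs in *Mef2c* f/f and 1 of 2 in Mef2c-cKO. In WT the correlations ran from -0.30 to 0.65 between CS and SD and from 0.05 to 0.66 between CS and RS. Between SD and RS they ran from -0.73 to 0.35. These mixed values do not settle whether a number stands for a shared batch. No paired analysis was possible between genotypes in CS or SD because they share no numbers. With 3 to 7 libraries a group, even some changes of several times their standard error were not called after adjustment, such as the genotype interactions of *Cldn11* and *Mog*. Changes smaller than the standard errors given in the report could not be resolved.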
